A study of Caenorhabditis elegans with 2 samples.

Results

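The members described here were the 612 nuclear genes annotated as tRNA in Ensembl release 115 for the WBcel235 assembly of Caenorhabditis elegans, out of 46890 nuclear genes in that annotation. Each gene was extended by 200 bp to both sides, and a member was counted as having a summit where the highest point of a ChIP-seq peak lay in that window. The rule names the genes by their annotation and uses no peak value.

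The peaks came from whole embryos of mixed sex at the late embryonic stage. The strain was OP120, which carries the unc-119(ed3) III mutation and the transgene wgIs120, an eGFP-tagged copy of ceh-30. There were 2 biological replicates of this 1 group, and both replicates carry the same alleles. Chromatin from whole animals averages over all cell types, and the names of the cells that expressed the transgene are not given in the labels. The authors deposited an optimal list of 545 peaks that passed the irreproducible discovery rate procedure, a pooled relaxed list of 30000 peaks, and relaxed lists of 30000 peaks for replicate 1 and 17926 peaks for replicate 2. Relaxed lists hold weak peaks and background on purpose. The optimal list carries the pooled signal, and the optimal peaks were the 545 pooled peaks of highest signal. No list gives read counts, so the depth of each replicate is unknown, and the control library was not analysed here. A summit in a window shows that the ChIP signal peaked there, and on its own it is no evidence of which protein was bound.

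CEH-30 is a homeodomain transcription factor known in C. elegans for keeping male-specific cephalic sensory neurons alive. tRNA genes are read by a different machinery, RNA polymerase III. Their promoter lies inside the gene as a pair of short blocks, the A box near the start and the B box near the end, which the assembly factor TFIIIC binds. TFIIIC places TFIIIB just upstream of the gene, TFIIIB recruits the polymerase, and the polymerase stops at a short run of T after the gene. tRNA genes of the worm occur in many identical copies and lie both between genes and inside introns of protein-coding genes.

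The sequences below are examples to which the results return: the gene with the strongest summit, a gene whose identical neighbours had none, and genes that share a summit with a neighbour. They were read from the RefSeq copy of WBcel235 (ce11) on the gene's own strand, 5′ to 3′. Capitals mark the A box core TNGCNNAG, where the gene holds it, and the B box core GTTCNANNC.
C04A11.t1, leucine, a single copy with the strongest tRNA peak, chrX:13665555-13665673, plus strand: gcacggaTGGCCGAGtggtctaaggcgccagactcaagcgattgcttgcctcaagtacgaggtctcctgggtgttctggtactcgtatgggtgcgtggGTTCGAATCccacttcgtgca
R11.t1, tyrosine, 1 of 6 identical copies, chrX:16209769-16209852, minus strand: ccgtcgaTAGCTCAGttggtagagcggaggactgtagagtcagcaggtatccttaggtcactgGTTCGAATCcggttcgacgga
F46G11.t1, proline, 1 of 24 identical copies, chrX:5801472-5801543, plus strand: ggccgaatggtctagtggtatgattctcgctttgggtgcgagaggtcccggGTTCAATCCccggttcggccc
F15G9.t1, alanine, 1 of 8 identical copies, chrX:9743589-9743660, plus strand: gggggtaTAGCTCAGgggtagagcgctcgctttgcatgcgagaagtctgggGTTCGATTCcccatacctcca
F15G9.t2, alanine, 1 of 15 identical copies, chrX:9743747-9743818, plus strand: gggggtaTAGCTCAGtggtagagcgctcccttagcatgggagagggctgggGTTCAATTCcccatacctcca
T23F1.t1, lysine, 1 of 14 identical copies, chrV:15465086-15465158, plus strand: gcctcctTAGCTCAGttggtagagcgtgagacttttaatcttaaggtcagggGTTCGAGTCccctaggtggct
In all of these genes the B box core lies in the last stretch before the 3′ end, and the proline gene has no A box core of these letters.

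tRNA genes had summits far more often than genes at large. An optimal summit lay in the windows of 51 of the 612 tRNA genes, or 8.33% (95% exact interval 6.27 to 10.8%). Over all nuclear genes, in windows of the same length set on the annotated 5′ end, the share was 0.953%. A summit was present in both replicate lists at 178 tRNA genes, or 29.1% (25.5 to 32.9%), against 4.79% over all nuclear genes. The replicate 1 list had a summit at 266 tRNA genes (43.5%, against 17.6% over all nuclear genes), and the replicate 2 list at 248 (40.5%, against 11.4%). The pooled list had one at 317 (51.8%, against 17.5%). The tRNA share thus differed by 2.94 percentage points between the replicates, and in each replicate it lay 25.8 points or more above the share over all genes. The intervals cover counting only, and neighbouring genes can share a summit, so the genes are not independent. No test of chance was made.

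**Figure D1:**
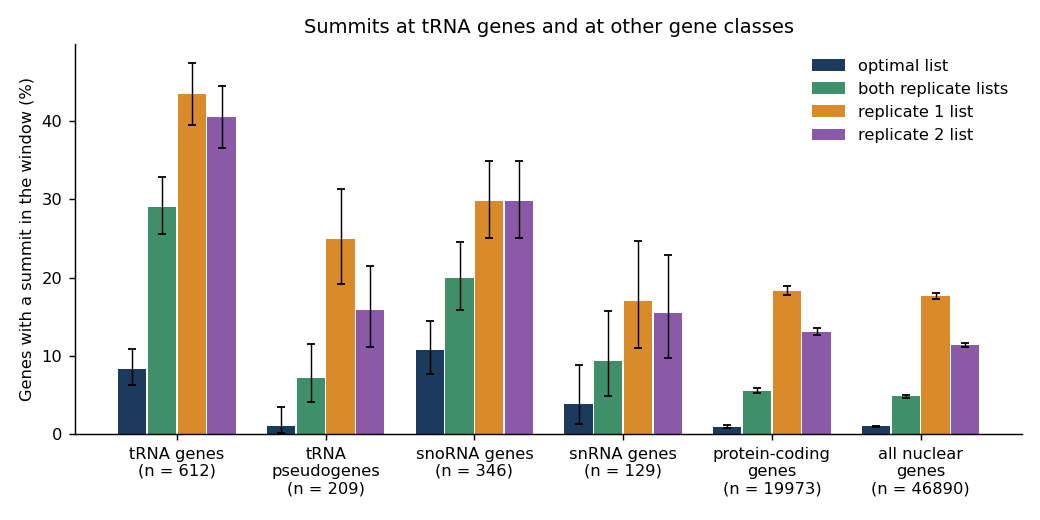
Percentage of genes (vertical axis) with a summit in the window, for tRNA genes and other gene classes (horizontal axis), in the optimal list, in both replicate lists, and in each replicate list. Bars are shares and whiskers are 95% exact intervals. The tRNA genes are at 8.33% in the optimal list and 29.1% in both replicates, and the tRNA pseudogenes are at 0.957% and 7.18%.

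Most tRNA genes with a summit in one replicate had one in the other. Of the 266 with a summit in replicate 1, 66.9% had one in replicate 2, against 40.5% of all tRNA genes. Of the 248 with a summit in replicate 2, 71.8% had one in replicate 1, against 43.5% of all tRNA genes. Over all nuclear genes with a summit in replicate 1, 27.2% had one in replicate 2, against 11.4% of all nuclear genes. Since summits were more frequent at tRNA genes in each list, the overlap of tRNA genes and that of genes at large are not set against each other. Of the 51 tRNA genes with an optimal summit, 50 had a summit in both replicate lists. The exception was C16B8.t3, a proline gene, whose window held a summit in replicate 2 only. The optimal list was chosen for agreement between these replicates, so this overlap is largely built in. Away from tRNA windows, 425 of 431 autosomal optimal peaks had a rank in replicate 1 and 428 in replicate 2. On X, 66 and 69 of 69 did. For the 178 genes with a summit in both, the summits of the 2 replicates lay a median of 49 bp apart, and 28 bp apart at those with an optimal summit.

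Annotated tRNA pseudogenes, which look like tRNA genes but are not counted as working copies, set a contrast within the same kind of sequence. An optimal summit lay at 51 of 612 tRNA genes and at 2 of 209 pseudogenes (0.957%, 0.116 to 3.41%). A summit in both replicates lay at 29.1% of tRNA genes and at 7.18% of pseudogenes (4.07 to 11.6%). The replicates gave 43.5% of tRNA genes and 24.9% of pseudogenes in replicate 1, and 40.5% of tRNA genes and 15.8% of pseudogenes in replicate 2. The gap between the classes was thus larger than the gap between replicates for the tRNA genes. The classes differ in chromosome, since X holds 276 of the tRNA genes and 29 of the pseudogenes. On the autosomes alone, an optimal summit lay at 4.76% of tRNA genes (2.75 to 7.62%) and 1.11% of pseudogenes (0.135 to 3.96%), and these intervals overlap. A summit in both replicates lay at 27.7% of autosomal tRNA genes (23.0 to 32.8%) and 7.78% of autosomal pseudogenes (4.32 to 12.7%). The tRNA genes had fewer unique positions: a median of 87.6% of the 32-base words in their windows occurred at 1 place in the nuclear genome, against 98.4% for the pseudogenes. The 2 pseudogenes were D1046.t1 on chromosome IV, with a signal of 59.9, and T08B2.t1 on chromosome I, with a signal of 56.1. Neither was near a tRNA gene, since the nearest lay 73530 bp and 48556 bp away.

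Summits gathered at the 5′ end of the tRNA gene. Counting from the first base of the gene along its strand, the optimal summit lay at a median of -21 bp, that is upstream, with quartiles of -35.5 and 20.5 bp. The side was not stable: the median was 6 bp, inside the gene, for the strongest peaks of replicate 2 alone, and -3 bp with windows extended by 50 bp. Of the 51 genes, 30 had the summit upstream of the gene, 15 inside it and 6 downstream, and 31 had it within 50 bp of the first base. The weaker lists lay slightly further in, with medians of 13.5 bp in replicate 1 and 23 bp in replicate 2. The peaks themselves were 344 bp wide at the median, and inside the gene nearly all words were repeated elsewhere (median 0% unique), so a summit cannot be placed on either box from these lists.

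**Figure D2:**
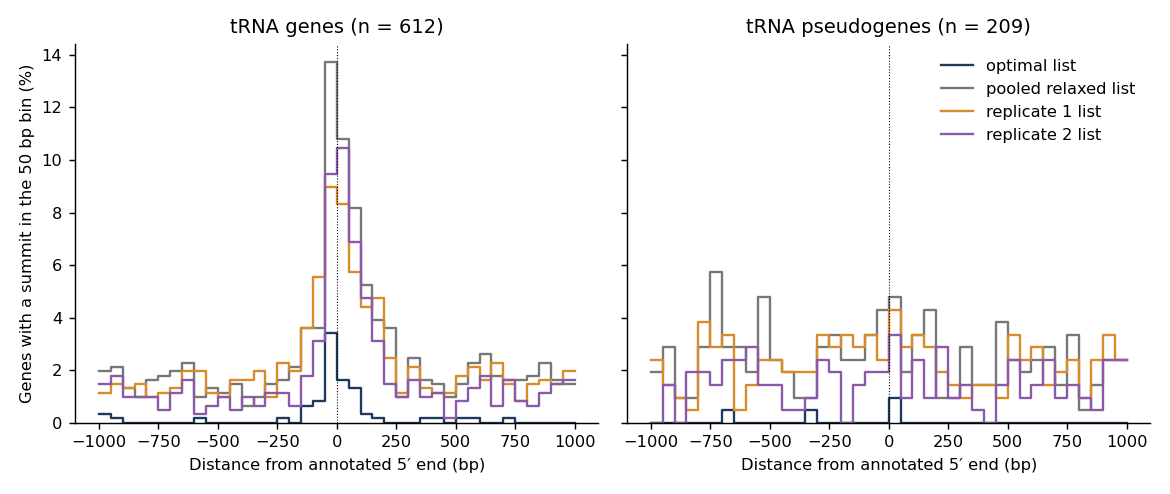
Percentage of genes with a summit in each 50 bp bin (vertical axis) against distance from the annotated 5′ end along the gene's strand (horizontal axis), for tRNA genes (left) and tRNA pseudogenes (right). In the pooled list the bin just upstream of the tRNA 5′ end holds a summit at 84 genes, or 13.7%, and the pseudogenes show no such peak.

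The profile was narrow in every list. In the 50 bp just upstream of the 5′ end, a summit lay at 8.99% of tRNA genes in replicate 1 and at 9.48% in replicate 2. In the 50 bp that begin 400 bp upstream, the shares were 1.63% and 0.98%.

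Stronger peaks were more often at tRNA genes. The windows of all members cover 0.272% of the nuclear bases, and they held 45 of the 545 optimal summits, or 8.26% (6.09 to 10.9%). They held 1.05% of the pooled summits, 0.887% of the replicate 1 summits and 1.34% of the replicate 2 summits. Among the 100 strongest pooled peaks 7 lay at tRNA genes, and among ranks 101 to 545 the share was 8.54%. It was 3.70% among ranks 1001 to 2000, and 0.36% among ranks 20001 to 30000. The replicates differed at the very top, since 7 of the 100 strongest peaks of replicate 2 and 2 of the 100 strongest of replicate 1 lay at tRNA genes.

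**Figure D3:**
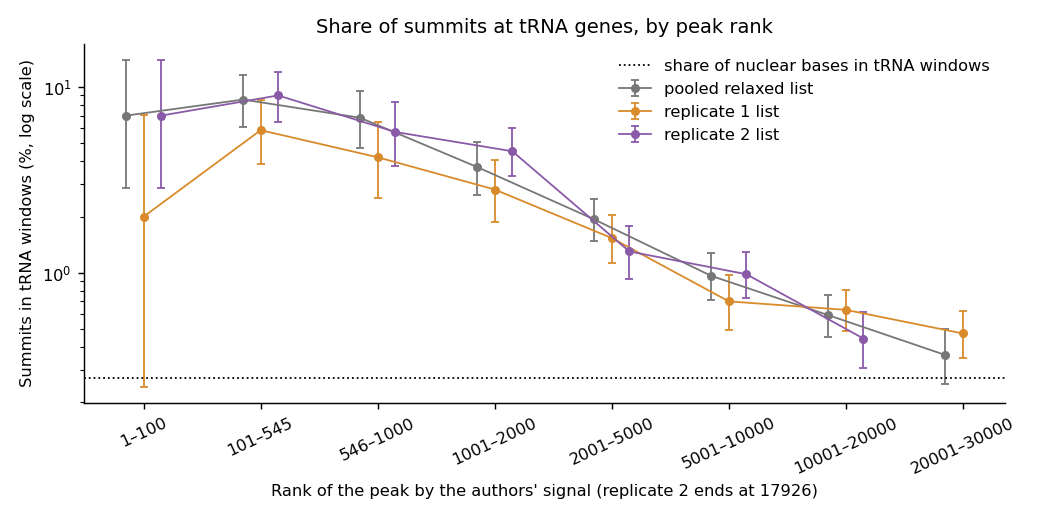
Percentage of summits that lie in tRNA windows (vertical log axis) by rank of the peak (horizontal axis), for the pooled list and each replicate list, with 95% exact intervals. The dotted line is the 0.272% of nuclear bases that the windows cover, and the pooled share is 8.54% at ranks 101 to 545 and 0.36% at the lowest ranks.

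Within the optimal list, peaks at tRNA genes were of ordinary height. The 45 peaks at tRNA genes had a median signal of 48.0 (quartiles 41.4 and 53.3, highest 111), and the 500 other optimal peaks a median of 48.8 (quartiles 42.9 and 59.9, highest 792). The signal is the authors' own peak height, whose scale differs between lists.

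The 15 strongest optimal peaks at tRNA genes lay in the windows of 19 genes. With overlapping windows counted once, 30 of the 45 loci with an optimal summit were on chromosome X. Of the 15 strongest peaks, 12 were on X, close to that share. The strongest was at the leucine gene C04A11.t1 printed above, with a signal of 111 and rank 13 of the pooled peaks; it ranked 39 in replicate 1 and 9 in replicate 2. The isoleucine gene C42D8.t1 followed with a signal of 84.0. It ranked 180 in replicate 1 and 24 in replicate 2. Both genes lie between protein-coding genes on X, and both were high in each replicate.

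The strongest intronic member was the cysteine gene C37A2.t1 on chromosome I, with a signal of 74.7, inside an intron of cye-1, which encodes the cell cycle regulator cyclin E. Its summit lay 47 bp upstream of the tRNA gene. Its rank was 165 in replicate 1 and 67 in replicate 2. The glutamate gene C28G1.t1 on X overlapped an exon of C28G1.2 and had a signal of 69.8, with ranks of 79 in replicate 1 and 120 in replicate 2. The lysine gene W03G11.t1 on X had a signal of 67.7, with rank 840 in replicate 1 and rank 46 in replicate 2. The asparagine gene F41D9.t3, in an intron of sulp-3 on X, had a signal of 66.1 and ranks of 133 and 72 in replicates 1 and 2. The strongest members were thus spread over many amino acids and over both kinds of position.

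The next strongest included the tyrosine gene C02B4.t2 in an intron of nhr-17 (signal 55.6), the alanine pair F15G9.t1 and F15G9.t2 in an intron of him-4 (57.0 at 1 shared summit), the alanine gene F34H10.t1 (54.8) and the glutamate gene rte-1 (53.3), all on X. The strongest members of each other chromosome were the methionine gene T15B12.t1 on chromosome III (51.3), the pair T23F1.t1 and T23F1.t2 on V (51.3), the aspartate gene F41A4.t1 on IV (48.7) and the isoleucine gene T21B4.t1 on II (39.1), besides C37A2.t1. T15B12.t1 ranked 364 in replicate 1 and 290 in replicate 2. The members without an optimal summit that came closest to it were the arginine gene C15C6.t1 (signal 37.8), the lysine gene M01E5.t1 (37.5) and the alanine gene K06A4.t1 (37.5). K06A4.t1, in an intron of swt-5, ranked 10313 in replicate 1 and 350 in replicate 2.

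Optimal summits were concentrated on X. Chromosome X carries 276 of the 612 tRNA genes, or 45.1%, on 17.7% of the nuclear bases, and it held 35 of the 51 with an optimal summit, or 68.6%. The share of tRNA genes with an optimal summit was 12.7% on X (8.99 to 17.2%) and 4.76% on the autosomes (16 of 336, 2.75 to 7.62%). Among the autosomes it ranged between 1 of 57 on II and 6 of 78 on V. The difference was 7.92 points in the optimal list. Among the 545 strongest peaks of each replicate it was lower, at 4.04 points in replicate 1 and 6.30 points in replicate 2. Among the 272 strongest it was 2.67 points in replicate 1 and 8.53 points in replicate 2. Among the 2000 strongest it was 2.23 points in replicate 1 and 6.42 points in replicate 2. At these cuts X was thus ahead in both replicates, but by less in replicate 1. In merged loci, where overlapping windows count once, the shares were 13.5% of 222 loci on X and 4.87% of 308 on the autosomes.

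**Figure D4:**
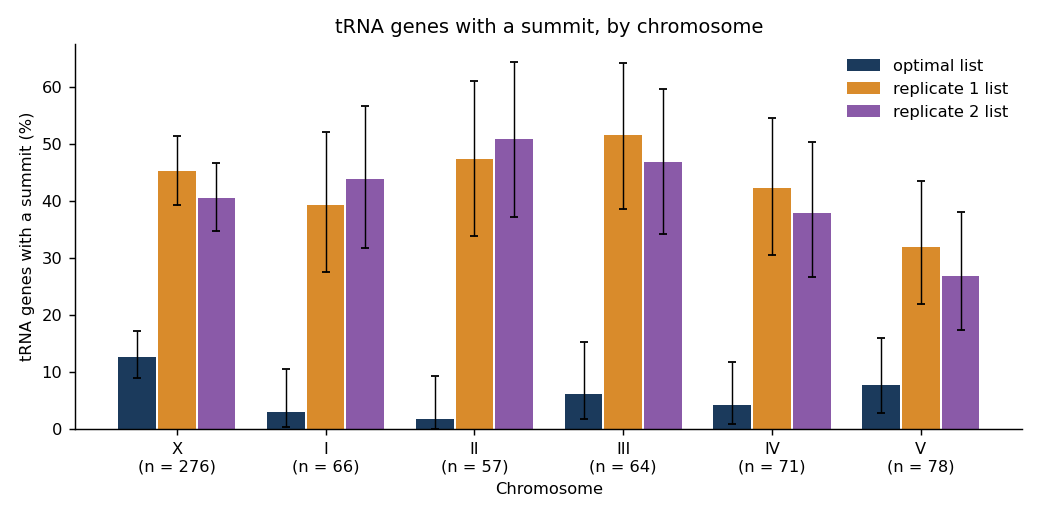
Percentage of tRNA genes with a summit (vertical axis) on each chromosome (horizontal axis), in the optimal list and in the 2 replicate lists, with 95% exact intervals. In the optimal list X stands at 12.7%, and in the replicate lists X, at 45.3% and 40.6%, lies within the range of the other chromosomes.

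The weaker peaks did not show this concentration. In the whole lists, a summit was present at 45.3% of the X genes and 42.0% of the autosomal genes in replicate 1, and at 40.6% of the X genes and 40.5% of the autosomal genes in replicate 2. In the pooled list the shares were 52.9% on X and 50.9% on the autosomes. Chromosome V was lowest in all of these lists, at 32.1% in replicate 1 and 26.9% in replicate 2. Going down the pooled list, X exceeded the autosomes by 7.27 points among the 1000 strongest peaks, by 5.10 points among 5000 and by 3.95 points among 10000. Each of these cuts contains the 545 optimal peaks, so its difference is partly carried over from them. Between the 545 and the 10000 strongest, genes with a summit rose from 35 to 107 of 276 on X. On the autosomes they rose from 16 to 117 of 336, so the peaks added below the optimal cut did not favour X.

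The excess on X was not seen at snoRNA or protein-coding genes. An optimal summit lay at 1 of 33 snoRNA genes on X and at 36 of 313 on the autosomes. It lay at 0.513% of protein-coding genes on X and at 1.01% on the autosomes. Over all nuclear genes other than tRNA, the shares were 1.06% on X and 0.827% on the autosomes. The windows of tRNA genes on X had a median GC content of 37.8%, against 41.5% on the autosomes, and their share of unique words was alike, at 87.5% on X and 87.8% on the autosomes. The part of GC content in the difference was not tested.

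Ranks in the 2 replicate lists are given as descriptions, since the lists differ in length (30000 peaks in replicate 1 and 17926 in replicate 2) and a rank in one is no measure of change against the other. Over the 35 X genes with an optimal summit, of which 34 had a summit in replicate 1 as well, the median rank was 508 in replicate 1 and 166 in replicate 2. The 16 autosomal genes had median ranks of 478 in replicate 1 and 387 in replicate 2. The rank was lower in number in replicate 2 at 28 of the 35 X genes, counting C16B8.t3, which has no rank in replicate 1, and at 11 of the 16 autosomal genes. Over all tRNA genes with a summit in both lists, the median ranks were 3179 in replicate 1 and 1060 in replicate 2 on X, and 3563 in replicate 1 and 1659 in replicate 2 on the autosomes. Away from tRNA genes, the 69 optimal peaks on X had a median rank of 313 in replicate 2. In replicate 1 only 66 of them had a rank, with a median of 292. The pair M02F4.t1 and M02F4.t2 ranked 7751 in replicate 1 and 51 in replicate 2.

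**Figure D5:**
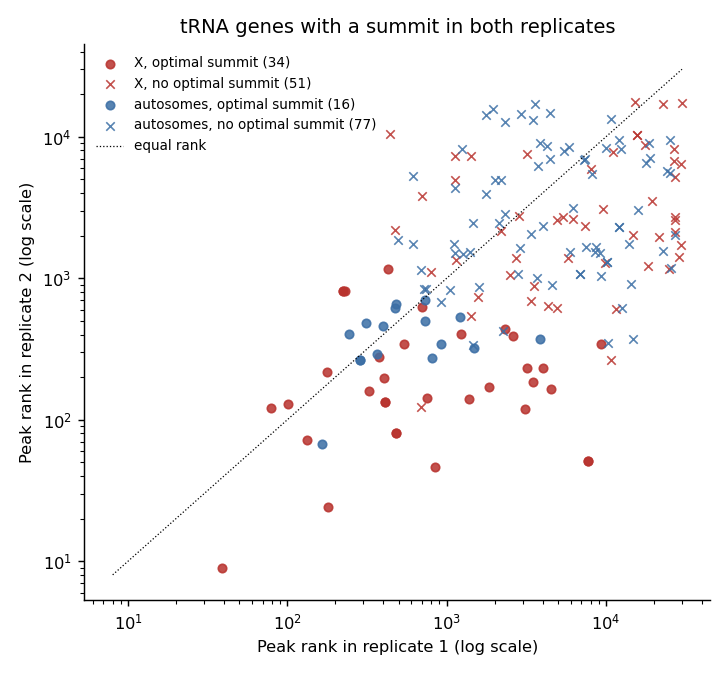
Peak rank in replicate 2 (vertical log axis) against peak rank in replicate 1 (horizontal log axis) for the 178 tRNA genes with a summit in both lists, on X (red) and autosomes (blue), with an optimal summit (circles) or without (crosses). Low ranks are strong peaks, and the lists hold 30000 peaks in replicate 1 and 17926 in replicate 2. The genes shown with an optimal summit are 34 on X and 16 on autosomes, and 11 of these 16 rank nearer the top in replicate 2. C16B8.t3 on X has no rank in replicate 1 and is not shown.

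Across these 178 genes, Spearman's rho between the 2 replicates' ranks was 0.50, 0.57 over the 85 on X and 0.42 over the 93 on the autosomes. These are descriptions over genes, some of which share a peak.

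Clustered tRNA genes, those with another tRNA gene within 1000 bp, had a summit less often per gene in the whole replicate lists. An optimal summit lay at 15 of 236 clustered genes (6.36%) and at 36 of 376 isolated genes (9.57%). In both replicates' lists the shares were 35.6% of clustered and 48.4% of isolated genes in replicate 1, and 32.6% of clustered and 45.5% of isolated genes in replicate 2, a gap of 12.8 to 12.9 points that exceeded the spread between replicates. The gap was wider on X, with 34.8% of clustered and 55.3% of isolated genes in replicate 1, and 28.9% and 51.8% in replicate 2. On the autosomes the shares were 36.6% of clustered and 44.3% of isolated genes in replicate 1, and 37.6% and 41.7% in replicate 2. For the strongest peaks the direction was unstable: the difference was -3.22 points in the optimal list, but -0.14 with clusters drawn within 500 bp, and among the 545 strongest of replicate 1 the shares were 5.51% of clustered and 5.32% of isolated genes. The 236 clustered genes form 100 clusters. Of these, 9 clusters held an optimal summit, against 9.57% of isolated genes, and 36 held a gene with a summit in both replicates, against 34.3% of isolated genes. A cluster offers 2 to 6 windows and an isolated gene 1, so these shares are not on an equal footing. With overlapping windows merged, 5.84% of 154 clustered loci and 9.57% of isolated loci held an optimal summit. Within X, 9.63% of clustered and 15.6% of isolated genes had an optimal summit, and on the autosomes 1.98% of clustered and 5.96% of isolated genes did.

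In the 8 clusters of 4 or more genes, summits lay at some genes and not at others. Of the 8, 2 held an optimal summit, at 1 gene in each. The 6 genes of F22F1 on X, at 8154445 to 8156707, encode serine, aspartate, methionine and isoleucine tRNAs. Of these 3 had a pooled summit, and the methionine gene F22F1.t6 was the one with an optimal summit (signal 48.0). Of the 6 histidine genes of F28H6, also on X, 2 had a pooled summit, with a signal of at most 12.3. A median of 23.2% of the words in the windows of these histidine genes were unique, against 87.6% over all members. The 5 arginine and cysteine genes of K01A12 on X had no pooled summit, though 2 had one in replicate 1. Of the 5 glutamine genes of H08J11, 1 had a pooled summit. Pooled summits lay at 3 of the 4 glycine genes of C12C8, at 2 of the 4 genes of Y65A5A and at 2 of the 4 valine genes of T01B4. The 4 tyrosine genes R11.t1 to R11.t4 have identical sequence, printed above, and only R11.t1 had a summit in any list, at a signal of 68.0 with rank 101 in replicate 1 and rank 130 in replicate 2.

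In 6 places 1 optimal summit served 2 tRNA genes. In 3 of them the genes diverge, in 2 they run the same way and in 1 they converge. The pair with the strongest summit was F46G11.t2 and F46G11.t1, which encode the same proline tRNA and point away from each other with 189 bp between them. The summit lay between them, 101 bp upstream of F46G11.t2 and 89 bp upstream of F46G11.t1, at signal 60.8, with rank 480 in replicate 1 and 81 in replicate 2. The stretch between the 2 genes is shown because the summit falls in it and not in a gene. It is given on the plus strand, and the capitals mark the summit base and 5 bases to either side.
F46G11.t2 to F46G11.t1, chrX:5801283-5801471: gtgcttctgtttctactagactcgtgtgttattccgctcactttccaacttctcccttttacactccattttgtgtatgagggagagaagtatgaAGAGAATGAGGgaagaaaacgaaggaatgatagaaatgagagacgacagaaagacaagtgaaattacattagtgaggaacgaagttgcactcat
At T23F1 on V the genes converge, and the summit lay downstream of both, 101 bp from the first base of T23F1.t1 and 109 bp from that of T23F1.t2.

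Intronic tRNA genes had a summit somewhat less often than intergenic ones, and the gap lay mostly on X in the pooled list. An optimal summit lay at 20 of 283 genes inside introns of protein-coding genes (7.07%) and at 30 of 319 between such genes (9.40%), and the remaining 10 members touched an exon. Among the 545 strongest peaks, the shares were 3.53% of intronic and 6.90% of intergenic genes in replicate 1, and 7.77% of intronic and 9.09% of intergenic genes in replicate 2. Within X the shares were 11.6% of 95 intronic and 12.8% of 180 intergenic genes. On the autosomes they were 4.79% of 188 intronic and 5.04% of 139 intergenic genes. In the optimal list the gaps within X and within the autosomes were thus smaller than the overall gap of 2.34 points. In the pooled list a summit lay at 48.8% of intronic and 54.5% of intergenic genes. Within X these shares were 44.2% of intronic and 57.2% of intergenic genes, and on the autosomes both were 51.1%. The replicates differed on X, with 44.2% of intronic and 45.6% of intergenic genes in replicate 1, and 35.8% of intronic and 42.8% of intergenic genes in replicate 2. Intronic genes read in the same direction as the host had an optimal summit at 12 of 160, and those read in the opposite direction at 8 of 122. Only 21 of the 612 windows held the 5′ end of a protein-coding gene, and 1 of those had an optimal summit. The other 50 of the 51 lay away from such starts, as most tRNA windows do. An optimal summit lay at 4.76% of the 21 (0.12 to 23.8%) and at 8.46% of the 591 without such an end. The interval for the 21 is too wide to set these shares apart.

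Identical copies of 1 tRNA gene did not all have a summit. The 612 genes have 200 distinct sequences, and 402 genes belong to 32 sequences with at least 5 copies. All 32 of these included both copies with a summit in both replicates and copies without one, and 22 included at least 1 copy with an optimal summit. In none did every copy have an optimal summit. Copies in these 32 families had a summit in both replicates at 33.1% and an optimal summit at 9.70%. For the 143 genes with a sequence of their own the shares were 16.8% and 3.50%. At the shares of the 32 families, most families of at least 5 copies would be mixed whatever their sequence. The mixture is thus no result about the copies in itself.

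The proline family of 24 copies is the largest whose sequence is printed above. Of its copies 5 had an optimal summit, 8 a summit in both replicates, and 9 no summit in the pooled list. The 5 with an optimal summit were F46G11.t1 and F46G11.t2 (signal 60.8), T23F1.t2 (51.3), ZK899.t1 (48.7) and H06A10.t1 (39.3). The other 10 copies with a pooled summit had signals of 10.7 to 35.4. All 5 with an optimal summit were among the 13 intergenic copies, and none of the 11 intronic copies had one. Position and chromosome went together, since 11 of the 13 intergenic copies lie on X and 9 of the 11 intronic copies on autosomes, and the 2 intronic copies on X had no summit in any list. Unique words made up 61.5 to 88.0% of the windows of intronic copies and 75.1 to 89.3% of those of intergenic copies. The parts of position, chromosome and unique sequence in the difference cannot be told apart in these 24 copies. Since the genes are identical, the copies differ only outside the gene. The 40 bases upstream of 3 copies with an optimal summit and 3 with no pooled summit are shown to compare them, each ending at the base before the gene.
F46G11.t1, summit, chrX:5801432-5801471, plus strand: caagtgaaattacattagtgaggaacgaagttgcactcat
ZK899.t1, summit, chrX:9467801-9467840, minus strand: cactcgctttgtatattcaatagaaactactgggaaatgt
T23F1.t2, summit, chrV:15465297-15465336, minus strand: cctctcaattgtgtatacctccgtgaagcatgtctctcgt
R04D3.t3, no summit, chrX:13307990-13308029, plus strand: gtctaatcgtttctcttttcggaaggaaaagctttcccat
T22F3.t1, no summit, chrV:3582280-3582319, plus strand: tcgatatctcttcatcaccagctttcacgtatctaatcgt
Y7A5A.t2, no summit, chrX:15796815-15796854, plus strand: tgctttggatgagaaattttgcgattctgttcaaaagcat
No motif was searched in these upstream bases.

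The tryptophan genes include loci known from genetics, since sup-5 and sup-7 are the classical amber suppressors of C. elegans, in which a mutant tryptophan tRNA reads a stop codon. Both had an optimal summit. The signal was 40.8 at sup-5 on III, with ranks of 1489 in replicate 1 and 323 in replicate 2. It was 40.2 at sup-7 on X, with ranks of 1237 in replicate 1 and 401 in replicate 2. Of the 7 tryptophan genes with a sup name, 4 had no pooled summit. A pooled summit lay at 5 of all 12 tryptophan genes and at 51.8% of all tRNA genes, so this count is ordinary. An optimal summit lay at 2 of the 12, against 8.33% of all tRNA genes. The genes with a sup name belong to a family of 10 identical copies.

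By amino acid, optimal summits were spread over 18 isotypes. Proline had 8 of 42 genes (95% exact interval 8.60 to 34.1%), methionine 4 of 20, aspartate 5 of 27 (18.5%), serine 4 of 39 and leucine 4 of 39. Glutamine had 0 of 27 and histidine 0 of 20, which allow shares of up to 12.8% and 16.8% by the exact interval. In the pooled list threonine was highest, with 23 of 34 (67.6%), while serine had 14 of 39 (35.9%) and histidine 7 of 20 (35.0%). Intervals of nearly all isotypes overlap, so an order among them cannot be read from these counts. The strongest members of isotypes not yet named were the valine gene R04D3.t2 (signal 49.3), the serine gene E03E2.t1 (48.0), the phenylalanine gene F32A6.t1 (46.9), the arginine gene F56F3.t1 (43.9), the threonine gene ZK563.t1 (40.3), the glycine gene M02F4.t1 (52.8), the histidine gene C06G1.t1 (36.4) and the glutamine gene F47E1.t1 (35.2).

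The B box core was nearly always present in tRNA genes and less often in pseudogenes. The letters TGGCNNAG, used here for the A box core, matched in a minority of tRNA genes and more often in pseudogenes. Freeing 1 base raised the tRNA share to 43.8%, so a missing match does not mean a missing A box. The B box core GTTCNANNC was present on the gene's strand in 587 of 612 tRNA genes (95.9%) and in 165 of 209 pseudogenes (78.9%). The share with a summit in both replicates was 29.0% of the 587 tRNA genes with the core, and 8 of the 25 without it. An optimal summit lay at 8.01% of the 587 and at 4 of the 25, or 16.0% (4.54 to 36.1%), an interval too wide to set the shares apart. Among pseudogenes, 7.88% of the 165 with the core and 2 of the 44 without it had a summit in both replicates. In the pooled list the shares were 32.1% of pseudogenes with the core and 9.09% of those without it. The A box core TGGCNNAG was present in 108 tRNA genes (17.6%) and in 127 pseudogenes (60.8%). A summit in both replicates lay at 27.8% of tRNA genes with the A box core and at 29.4% of those without it. In pseudogenes these shares were 10.2% with the core and 2 of 82 without it. In replicate 1 alone they were 36.2% of pseudogenes with the core and 7.32% of those without it. In replicate 2 alone they were closer, at 19.7% with the core (13.2 to 27.7%) and 9.76% without it (4.31 to 18.3%), and these intervals overlap. With the second base left free, as TNGCNNAG, which was chosen after seeing the data, it was in 268 tRNA genes (43.8%) and 139 pseudogenes (66.5%). A run of at least 4 T within 20 bases after the gene was present at 602 tRNA genes and 192 pseudogenes, and at all 51 with an optimal summit. Counted on either strand anywhere in the window, GTTCNANNC was in 96.9% of tRNA windows and in 16.8% of windows of the same length at all gene starts. TNGCNNAG, of which TGGCNNAG is a special case, was in 61.3% of tRNA windows and 34.7% of all such windows. Since tRNA windows hold the tRNA gene itself, these contrasts say nothing about summits. GTTCNANNC was in 94.1% of tRNA windows with an optimal summit and 97.1% of those without. For TNGCNNAG these shares were 66.7% and 60.8%. A match to these letters is a description, and a missing match says nothing about the factor.

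Other noncoding RNA genes, some of them read by RNA polymerase III, gave mixed values. rpr-1, which encodes the RNA of RNase P that trims the 5′ end of tRNA precursors, had an optimal summit with a signal of 92.2, at rank 27 of the pooled peaks, above all tRNA genes but C04A11.t1. yrn-1, the Y RNA gene, had no summit in any list. Of 20 nuclear rRNA genes, which include the tandem 5S genes of polymerase III and the large rRNA genes of polymerase I, 1 had a pooled summit and none an optimal one, but most of the 5S windows hold few unique words. U6 snRNA and SRP RNA genes, both read by polymerase III, are not named as such in the annotations used here. The snRNA and snoRNA classes are not, as a whole, polymerase III genes, and most snRNA genes are read by polymerase II. Of 129 snRNA genes, 5 (3.88%) had an optimal summit, and of 346 snoRNA genes 37 (10.7%) did, close to the 8.33% of tRNA genes and within its interval. No tRNA window overlapped a snoRNA gene.

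Summits at the protein-coding genes of the pathway were too few to set against genes at large. Of 24 listed genes for the polymerase and its factors, 23 were matched by name. None had an optimal summit, where 0.953% of all nuclear genes did, so a count of 0 is no result for a list of this length. Of the 23, 7 (30.4%) had a pooled summit, against 17.5% over all nuclear genes. Only snpc-3.4 and snpc-1.2, which encode subunits of the small nuclear RNA activating complex, had a summit in both replicates (8.70% of the list, against 4.79% over all nuclear genes), with pooled signals of 34.6 and 15.7. rpc-1, for the largest polymerase subunit, and tftc-1, for a TFIIIC subunit, had pooled summits of signal 19.4 and 21.7 and none in replicate 2. Of 12 listed genes for tRNA processing and export, 11 were matched, and 1 had a pooled summit: tsen-34, for a subunit of the tRNA splicing endonuclease, at signal 13.9. xpo-3, which encodes the tRNA exporter, had a summit in each replicate list and none in the pooled list.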

How the data were processed

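ChIP-seq peak lists of 2 biological replicates of 1 group were analysed on ce11. Per the deposited descriptions, the authors called relaxed lists on each replicate and on the pool, each against a control alignment, and derived the optimal list by the irreproducible discovery rate procedure. The labels and files used here name no aligner, peak caller or threshold. The signal per peak is the authors' deposited peak height. It was used only to rank and describe peaks within a list. The ce10 lists were not used. Summits were the authors' positions (1-based).

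Genes came from Ensembl release 115, and isotypes, pseudogenes and sequence from RefSeq WBcel235, whose chromosome lengths match. All 612 members were matched by identifier, and 5 carry no isotype. The strongest summit in a window gave a gene its signal and rank. Comparison windows for other genes were 472 bp, the median tRNA length of 72 bp plus 200 bp to both sides, set on the annotated 5′ end. Pseudogenes kept their own length plus 200 bp. A tRNA gene was intronic if it lay wholly in an intron of a protein-coding gene and in no exon. Intervals are exact (Clopper-Pearson, 95%) and cover counting error only. The spread between replicates was read from the 545 strongest peaks of each. With 1 group and no counts, no test was made. The members and gene lists were chosen with earlier results of these data known. The text names the genes of the 15 strongest optimal peaks at tRNA genes, the strongest member by chromosome, spacing, position, isotype and identical family of at least 5 (not all families are listed), the largest clusters, the 3 strongest members without an optimal summit, and members chosen after seeing their values: the sup genes, copies of the proline family, C16B8.t3, the clusters of 4 genes and the pseudogenes. The comparison with pseudogenes was added after seeing the data. Some sequences are not reported here. Counting was tested on simulated peaks. Python 3.11.15, NumPy 2.4.6, SciPy 1.17.1 and Matplotlib 3.10.9 were used. Alternatives were other window extensions, peak overlap in place of summits, the 272 strongest optimal peaks, each replicate alone, merged loci, unique windows, windows without protein-coding starts, the pooled list and other cluster distances.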

Additional observations from a re-analysis of the deposited data

How the results depend on the processing

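Of 58 alternatives, 34 stayed within the interval or the spread between replicates, 21 moved beyond it and 3 changed sign. Staying within it does not mean that the size held, since the fall of the clustered minus isolated difference to -0.14 points was counted as staying. The share of tRNA genes with an optimal summit (8.33%) was 3.92% with the 272 strongest optimal peaks only, and 5.39 to 8.50% with either replicate alone. The share with a summit in both replicates (29.1%) was 16.5% with a 50 bp extension, 37.3% with 500 bp and 34.5% with any peak overlap. The X minus autosome difference (7.92 points) was positive in each alternative. It was 5.62 with 50 bp, 9.73 with 500 bp, 5.40 with those 272 and 4.04 to 6.30 with either replicate alone. It was 2.01 in the pooled relaxed list. In cuts chosen after seeing the data, it was 5.27, 5.10 and 3.95 among the 2000, 5000 and 10000 strongest pooled peaks. The pooled list and these cuts contain the optimal peaks, so a positive difference there is partly carried over from them. The clustered minus isolated difference (-3.22 points) turned to 0.51 with those 272, was -0.14 with clusters drawn within 500 bp, -5.77 with unique windows and -1.79 with the 500 bp extension, and lay between -4.17 and 0.19 with either replicate alone, and was -10.5 in the pooled list. The intronic minus intergenic difference (-2.34 points) was -0.54 with 50 bp, -5.78 in the pooled list and -3.36 to -1.32 with either replicate alone. The median summit position (-21 bp) was -3 bp with 50 bp, -11.5 bp with those 272 and -16 to 6 bp with either replicate alone. The median signal at tRNA genes (48.0) was 20.3 to 28.1 in the replicates' own lists, whose scales differ. The A box share (17.6%) was 43.8% with TNGCNNAG. The cause of these changes was not tested. No paired analysis was possible because there is 1 group. Depth is unknown, so weak and absent signal cannot be told apart.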
